A study of Homo sapiens with 17 samples.

Results

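The chromosome 19 zinc finger genes examined here are the protein-coding genes of human chromosome 19 whose symbol is ZNF and a number, with or without a final letter. The annotation (GENCODE 29) lists 246 of them, and 244 were matched by identifier among the 63677 genes of the count files. ZNF8 and ZNF229 are not analysed here. Members were selected on their summed counts: a gene is a member of a comparison where its reads summed to 20 or more over the 6 libraries compared. That sum takes no account of the group, and it kept 201 of the 244 genes in Karpas-422 and 219 in WSU-DLCL2. The 2 comparisons shared 198 members, 3 were members in Karpas-422 alone, 21 in WSU-DLCL2 alone, and 22 in neither. Just inside the limit in Karpas-422 were ZNF566 and ZNF540 with 22 counts each, and just outside it ZNF560 and ZNF180 with 16 each. In WSU-DLCL2 ZNF257 with 21 counts and ZNF77 with 35 were the nearest inside, and ZNF234 with 8 and ZNF57 with 5 the nearest outside. No count at all was recorded for 24 of the genes in Karpas-422 and for 11 in WSU-DLCL2.

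RNA-seq read counts per gene came from Karpas-422 and WSU-DLCL2, established lines of human diffuse large B cell lymphoma. There were 5 groups of 3 libraries: Karpas-422 untreated, Karpas-422 after 48 h of A-485, WSU-DLCL2 untreated, WSU-DLCL2 after 48 h of A-485, and WSU-DLCL2 clones carrying the label of a BCL11A knockout. A-485 blocks the catalytic site of the histone acetyltransferases p300 and CBP, and BCL11A is itself a zinc finger repressor of the B lineage. Untreated is the name used here for the control libraries, which may have received the vehicle DMSO. The sources used here give neither the dose of A-485 nor the edit in the clones. Each clone is a separate cell line grown from an edited cell, and the untreated libraries carry the label of the line, not of an unedited clone. The labels do not say whether numbered replicates came from separate cultures, so the spread that p-values measure may be a technical one. For untreated WSU-DLCL2 replicate 3 the title and the treatment entry disagree, the latter naming A-485. The title set its group here, and each comparison is given with and without it.

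Zinc fingers of the C2H2 kind are short loops held by a zinc ion between 2 cysteines and 2 histidines, and a row of them reads a stretch of DNA. Many of these proteins also carry a KRAB domain, which recruits the corepressor TRIM28 (KAP1). TRIM28 brings the methyltransferase SETDB1 and HP1 proteins, which lay down and bind H3K9 trimethylation, and much of this system silences transposable elements. On chromosome 19 the genes lie in tandem clusters that arose by duplication, so neighbours are often close copies of each other.

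Among the 244 genes, 207 had a KRAB-like stretch in their longest complete coding sequence and 37 had none. The number of C2H2 units per protein ranged from 0 to 36 with a median of 12. ZNF208, the gene with 36, had the most. In gene order they formed 24 clusters, split wherever more than 5 other protein-coding genes lay between neighbours, and 6 clusters with 19 or more genes held 189 of them. The following stretches of coding sequence show 1 finger with its linker in some of the genes described below. They run 5′ to 3′ on the gene's own strand, and the capitals mark the codons of the 2 cysteines and 2 histidines. ZNF226, ZNF439 and ZNF83 are among the largest rises with A-485, ZNF587B and ZNF787 among the largest falls, and ZNF208 had no count in the clones.
ZNF226: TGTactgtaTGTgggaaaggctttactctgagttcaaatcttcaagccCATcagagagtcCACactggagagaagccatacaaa
ZNF439: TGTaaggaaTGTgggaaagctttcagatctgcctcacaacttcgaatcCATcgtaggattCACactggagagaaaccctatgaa
ZNF83: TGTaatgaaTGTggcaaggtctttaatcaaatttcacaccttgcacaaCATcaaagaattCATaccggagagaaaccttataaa
ZNF587B: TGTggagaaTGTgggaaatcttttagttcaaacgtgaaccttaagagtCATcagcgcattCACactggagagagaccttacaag
ZNF787: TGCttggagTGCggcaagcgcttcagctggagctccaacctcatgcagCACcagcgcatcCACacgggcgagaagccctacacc
ZNF208: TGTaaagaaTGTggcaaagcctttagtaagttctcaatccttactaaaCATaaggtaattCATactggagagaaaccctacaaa

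Each is the unit of its gene, 84 bases long, that is closest to the most common base at each position over the 2668 units of this length in the family. Against that consensus a unit was identical at 72.1% of positions on average. The unit shown for ZNF208 was identical at 75 of 84 positions, that of ZNF83 at 69, those of ZNF226, ZNF439 and ZNF587B at 63 each, and that of ZNF787 at 52. Identity in such units bears on counting, since a read that fits several genes may not be assigned to 1 of them. Runs of 50 bases were taken from the longest complete coding sequence of each gene. They were looked for in the transcripts of genes that do not overlap it. By this count 111 of the 244 genes shared no run, and 43 shared 10% or more of their runs. Sharing with overlapping genes, or in untranslated exon bases of the member, was not counted. ZNF587 and ZNF417, with 66.6% shared, carry for example the same unit:
ZNF587: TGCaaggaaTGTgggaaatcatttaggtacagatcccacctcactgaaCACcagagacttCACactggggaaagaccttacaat
ZNF417: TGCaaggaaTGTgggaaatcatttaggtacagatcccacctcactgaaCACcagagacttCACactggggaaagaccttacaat

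Of 11 ZNF587 units, 3 had an identical unit in ZNF417, and values of both genes are uncertain for this reason. Of the 244 genes, 177 overlap another annotated gene, 131 of them on the opposite strand. These overlaps are of whole gene spans, introns included, so the exons of a pair need not overlap. No source used here states the strand of the libraries, so reads from exon bases shared by such a pair cannot be told apart.

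The libraries were of 2 kinds. The shallow kind, Karpas-422 in both groups and the WSU-DLCL2 libraries given A-485, had 6689320 to 8897051 counts in genes, and 43.0% to 55.5% of their reads had no unique alignment. The deep kind, the clones and untreated WSU-DLCL2, had 21233752 to 37286727 counts, and 7.73% to 9.24% of reads without a unique alignment. A gene's level therefore cannot be compared between the kinds: relative to untreated WSU-DLCL2 replicates 1 and 2, untreated Karpas-422 had a median log2 ratio of 3.43 for the 5 members with 1 annotated transcript, and of -1.73 for the 31 with 11 to 20. For other protein-coding genes these medians were 2.04 and -2.89 in the same classes, so the ratio fell with transcript number in both sets. A-485 in WSU-DLCL2 has no untreated group of its kind of library and was not tested. Of the B cell markers, 9 genes such as PAX5 and CD79A were all counted in every group, at a summed 10482 to 11839 CPM (counts per 1000000 counts in genes) in Karpas-422 and 2982 to 7409 in WSU-DLCL2. In untreated Karpas-422 the B cell markers CD22, MS4A1, EBF1 and BLNK had means of only 2.90 to 6.35 CPM, against 1814 for PAX5. The T cell genes CD3G, CD3D and CD247 had 595, 57.9 and 5.05, and CD3E and NKG7 had 0.174 and 0.579. SPI1, highest of the myeloid markers, had 33.8, and DCN, a fibroblast gene, had 398. Untreated WSU-DLCL2 had SPI1 at 51.6 and DCN at 17.5 as well. CD2, EPCAM, KRT8, KRT18, COL1A1 and COL1A2 were at 0 in both Karpas-422 groups.

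**Figure D1:**
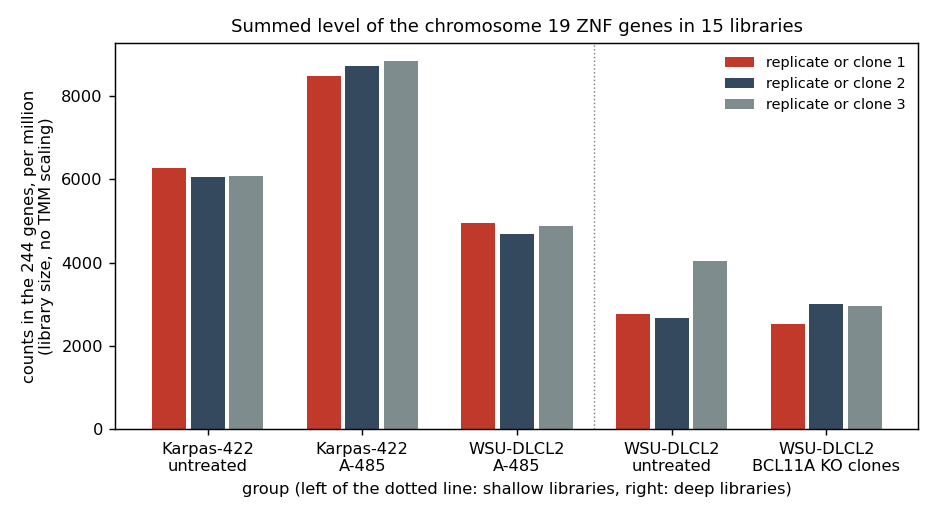
Summed level of the 244 chromosome 19 ZNF genes in each of the 15 libraries, in 5 groups of 3 bars, as CPM by library size alone. With A-485 the Karpas-422 bars lie between 8472 and 8839, above the untreated ones between 6046 and 6279, and untreated WSU-DLCL2 replicate 3 reaches 4051 where the other libraries of that line's deep kind lie between 2525 and 3000.

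As a sum, the 244 genes took 8472, 8723 and 8839 CPM in the 3 Karpas-422 libraries with A-485 and 6279, 6046 and 6072 in the untreated ones, by library size alone. With TMM scaling, which the tests below use, the sums were 7259, 7619 and 7617 with A-485 and 6980, 7181 and 7176 untreated. The groups did not overlap on either scale, but the gap was much smaller with TMM. By library size, in WSU-DLCL2 with A-485 the sum was 4952, 4693 and 4880. The clones had 2525, 3000 and 2965, and untreated WSU-DLCL2 had 2757, 2674 and 4051, the last being replicate 3, which had 3896 with TMM scaling. In levels per kilobase of exon within 1 group, ZNF614 led in untreated Karpas-422 with 47.9 ± 0.871 CPM per kb (SD, n = 3). ZNF480 followed with 39.97 ± 2.05 and ZNF14 with 37.2 ± 1.77. The ranges of these genes over their libraries did not meet, though the lowest value of ZNF480, 38.8, was close to the highest of ZNF14, 38.7. ZNF14 has 1 annotated transcript, ZNF614 has 4 and ZNF480 has 6, and since levels in the shallow kind moved with transcript number, the order across genes is limited by it. With A-485 the median over the genes was 1.75 CPM per kb and ZNF14 stood at 53.2 ± 1.95, ZNF738 at 52.3 ± 1.69 and ZNF600 at 52.2 ± 1.70, with ranges that overlapped. In untreated WSU-DLCL2 the order was ZNF146 with 35.2 ± 4.66, ZNF581 with 22.9 ± 1.25 and ZNF480 with 13.03 ± 6.26, and their ranges did not meet either.

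With A-485 in Karpas-422 more of the zinc finger genes were called higher than lower. Of 201 members, 91 rose, 33 fell and 77 did not pass the test (edgeR's quasi-likelihood test, Benjamini-Hochberg adjusted over 14395 genes, threshold 0.05). Of all genes tested, 34.2% were called higher and 29.9% lower, so a call by itself was common: 64.1% of all genes had one. For the members the shares were 45.3% and 16.4%, 61.7% in all, so calls were about as common among them as among all genes. The median log2 fold change was 0.28 over the members and 0.12 over all genes. Libraries with A-485 lay above every untreated library for 95 members and below for 41, against 37.2% and 31.7% of all genes. At least 2-fold changes were called higher for 45 of the 201 members and lower for 9, against 22.4% and 11.8% of all genes. Rises of that size were thus about as common among the members as among all genes, and falls were less common.

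These shares rest on the scaling of the libraries. With library sizes alone, in place of TMM scaling, 131 members were called higher and 17 lower, and the median of all genes moved from 0.12 to 0.54, a shift of 0.42. Of all genes, 51.1% were then called higher and 16.9% lower. The higher genes then made up 88.5% of the called members, where TMM scaling gave 73.4%. Over all called genes the same shares were 75.1% and 53.3%. All 91 members called higher kept that call. Of the 33 called lower, 17 kept it, 14 were not called and 2 were called higher. Only 11 of the 201 members had fewer than 10 counts in 1 of the groups, 10 of them in the untreated group, and so could pass the limit of 20 only through the other group.

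ZNF genes on other chromosomes also had more rises than falls, while the other genes of chromosome 19 had more falls. Of 196 tested ZNF genes on other chromosomes, 73 were higher and 46 lower, 37.2% and 23.5%, with a median of 0.18. Among the other protein-coding genes of chromosome 19, 143 of 592 were higher and 227 lower. These were 24.2% and 38.3%, with a median of -0.22. Whether the members differ from these sets was not tested.

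The number of annotated transcripts moved with the result. None of the 3 members with 1 transcript was called higher and 2 were called lower. With 2 to 3 transcripts 10 of 39 were higher and 14 lower, and with 4 to 6 transcripts 29 of 68 were higher and 14 lower. Of the 59 members with 7 to 10 transcripts 29 were higher and 2 lower, and of the 29 with 11 to 20, 21 were higher and none lower. The median log2 fold change went from -0.48 in the first class to 1.10 in the class of 11 to 20. Other protein-coding genes showed the same order at lower values, from -0.50 with 1 transcript to 0.35 with 11 to 20. Within the classes from 2 to 3 up to 11 to 20 the member median lay above that of the other genes, by the pairs -0.08 and -0.36, 0.26 and -0.23, 0.39 and 0.09, and 1.10 and 0.35. In these libraries 48.8% to 49.0% of reads with A-485 had no unique alignment and 54.5% to 55.5% without it, and 8.25% to 8.91% against 3.61% to 4.54% lay outside genes. Their part in the result was not tested.

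**Figure D2:**
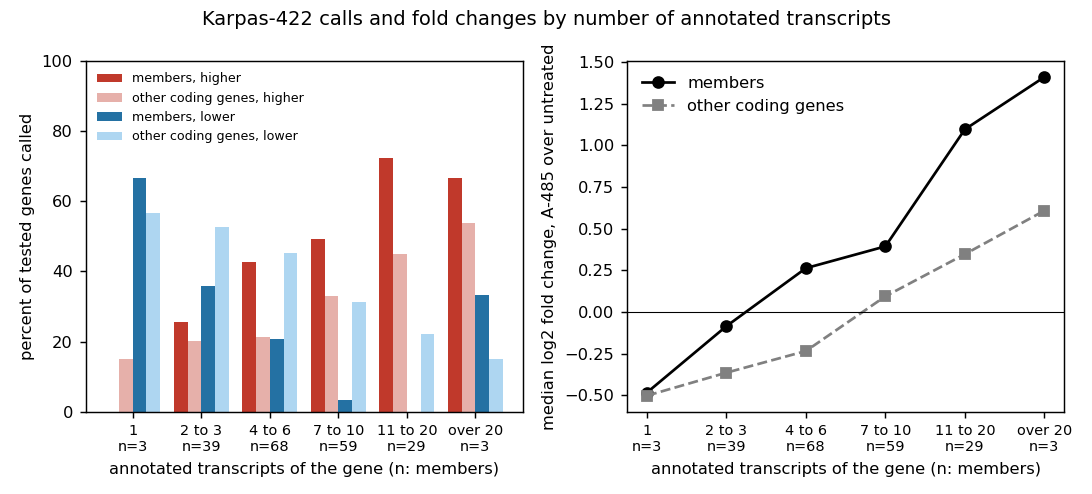
Left, percent of tested genes called higher (red) or lower (blue) with A-485 in Karpas-422, for members (dark) and other protein-coding genes (pale), by number of annotated transcripts; right, the median log2 fold change of the same classes. The members' median rises from -0.48 with 1 transcript to 1.10 with 11 to 20, where the other genes go from -0.50 to 0.35; the first and last classes hold 3 members each.

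Members with and without a KRAB-like stretch differed in their counts of calls. Of 171 with it, 83 rose and 22 fell, with a median log2 fold change of 0.34. Of 30 without it, 8 rose and 11 fell, with a median of -0.09. Those without it also had fewer annotated transcripts, a median of 4 against 6. With 1 to 3 transcripts, 10 of 31 KRAB-like members were higher and 9 lower, while none of 11 others was higher and 7 were lower. With 4 to 6 transcripts the counts were 25 and 10 of 56 against 4 and 4 of 12. With 7 or more they were 48 and 3 of 84 against 4 and 0 of 7, and the medians were 0.50 and 0.44. The difference between these classes was not tested. The number of fingers did not set the called members apart: those that rose had a median of 12 units, those that fell 11, and those not called 13. Among the 92 members with no run of 50 coding bases in common with a gene that does not overlap them, 35 rose and 21 fell. Among the 35 with 10% or more shared, 17 rose and 6 fell.

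**Figure D3:**
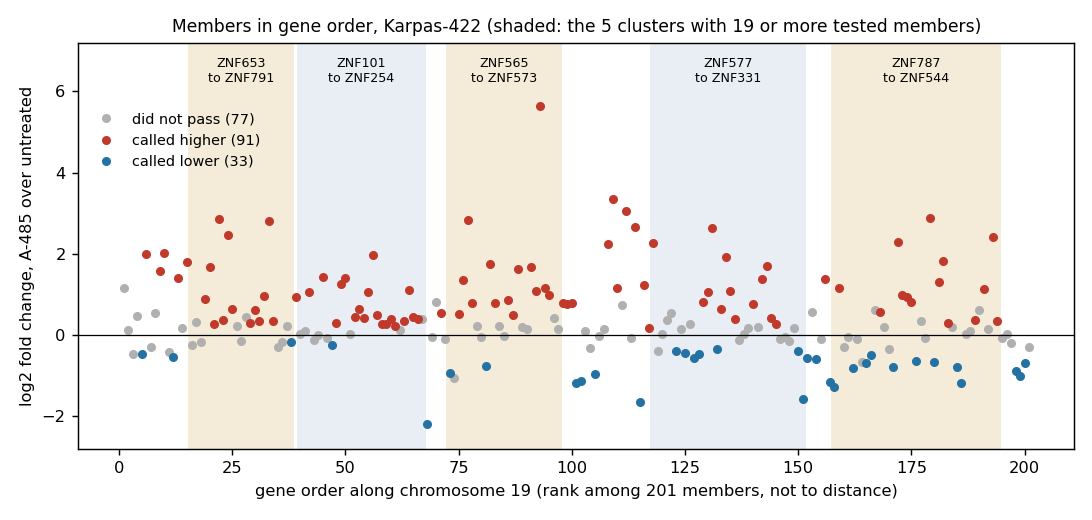
Log2 fold change (A-485 over untreated, Karpas-422) of the 201 members in gene order along chromosome 19, by rank and not to distance; red points were called higher (91), blue points lower (33) and grey points did not pass, and shading marks clusters with 19 or more tested members. The cluster from ZNF101 to ZNF254 holds 19 higher and 1 lower and that from ZNF787 to ZNF544 holds 14 and 9. Of all genes tested, 34.2% were called higher and 29.9% lower. The highest point, ZNF540, had no count untreated and its fitted value is no measured fold.

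By position, the cluster from ZNF101 to ZNF254 had 19 higher and 1 lower of 28 members, with a median log2 fold change of 0.39. The cluster from ZNF653 to ZNF791 had 13 and 1 of 23, and that from ZNF565 to ZNF573 had 14 and 2 of 25, with a median of 0.51. The cluster from ZNF283 to ZNF180, with only 9 of its 19 genes tested, had 5 higher and none lower and a median of 1.17. More mixed were the clusters from ZNF577 to ZNF331, with 13 and 7 of 34, and from ZNF787 to ZNF544, with 14 and 9 of 37. The cluster from ZNF497 to ZNF446 had no member higher and 3 lower of 7. Of all genes tested, 34.2% were called higher and 29.9% lower. The median number of annotated transcripts of the tested members was 6.5 from ZNF101 to ZNF254 and 5 from ZNF653 to ZNF791. From ZNF565 to ZNF573 it was 8, and from ZNF283 to ZNF180 it was 7. It was 8 from ZNF577 to ZNF331, 5 from ZNF787 to ZNF544 and 4 from ZNF497 to ZNF446. The part of transcript number in these counts was not tested.

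The largest rises among members with at least 5 CPM and no overlap between groups were led by ZNF226, a KRAB zinc finger gene with 17 fingers. It measured 27.3, 27.4 and 31.9 TMM-scaled CPM with A-485 and 4.07, 3.19 and 3.06 untreated. All libraries with A-485 lay far above the untreated ones. The log2 fold change was 3.05 ± 0.16 (SE, n = 3 per group; edgeR adjusted p = 2.37e-11). ZNF439, with 11 fingers, gave 19.7, 19.2 and 18.1 CPM against 2.72, 2.58 and 2.55, a log2 fold change of 2.85 ± 0.17. Of its runs of 50 bases 11.7% are shared, most often with its neighbour ZNF440. ZNF799 gave 10.2, 10.01 and 8.43 CPM against 2.44, 0.608 and 0.850. Its groups did not overlap, but 35.6% of its runs of 50 bases are shared, mostly with its neighbour ZNF443, so the value of 2.80 ± 0.30 is uncertain. ZNF528 gave 14.5, 16.7 and 15.95 CPM against 2.58, 2.89 and 2.04, a log2 fold change of 2.64 ± 0.19. No shared run was counted in its coding sequence.

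ZNF274 binds the 3′ ends of other zinc finger genes and recruits SETDB1 to them. It measured 15.1, 15.5 and 15.5 CPM with A-485 and 4.89, 2.28 and 1.02 untreated. The treated libraries were close together and all above the untreated ones, which spread widely. Its log2 fold change was 2.42 ± 0.28 (edgeR adjusted p = 6.49e-06). ZNF83, which alone among the 10 largest rises has no KRAB-like stretch, gave 84.7, 84.4 and 94.4 CPM against 23.1, 20.2 and 26.2, a log2 fold change of 1.93 ± 0.10. It overlaps annotated genes on both strands. The other 4 of the 10 were ZNF700 (2.46 ± 0.27), ZNF266 (2.02 ± 0.17), ZNF493 (1.97 ± 0.13) and ZNF671 (1.83 ± 0.26), the last reported as silenced by promoter methylation in carcinomas.

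**Figure D4:**
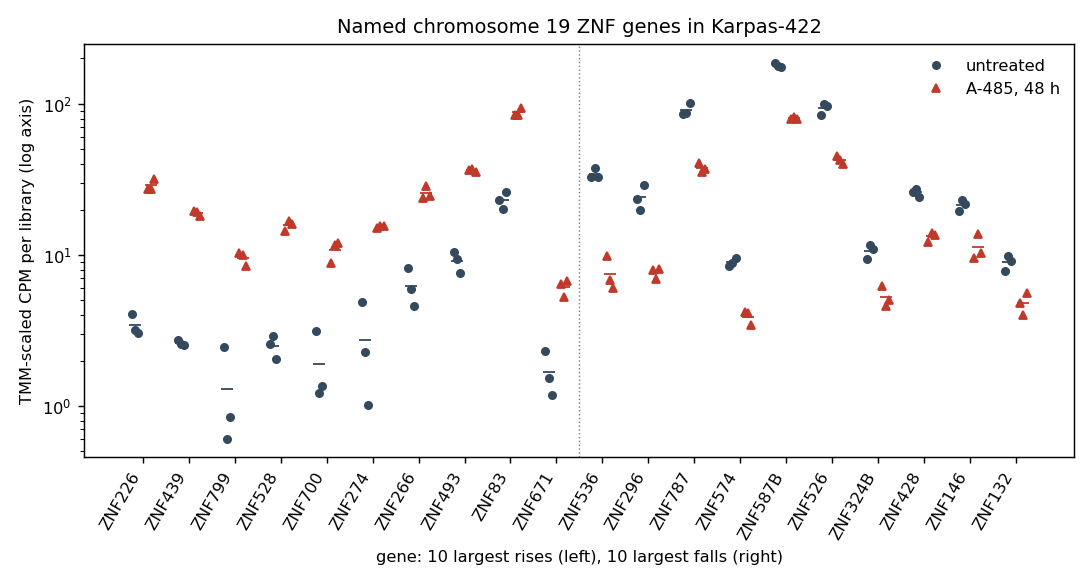
TMM-scaled CPM (log axis) of the 10 largest rises and 10 largest falls among the members in each Karpas-422 library: circles untreated, triangles A-485, short lines the group means. No pair of groups overlaps; ZNF226 goes from 3.06 to 4.07 untreated to 27.3 to 31.9 with A-485, and ZNF536 from 32.7 to 37.4 down to 6.02 to 9.79.

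The largest fall was that of ZNF536, a zinc finger gene of the developing nervous system with no KRAB-like stretch. It measured 9.79, 6.77 and 6.02 CPM with A-485 and 32.7, 37.4 and 32.7 untreated. The groups were far apart, and the log2 fold change was -2.19 ± 0.15 (edgeR adjusted p = 1.05e-09). In WSU-DLCL2 ZNF536 had 0 counts in every library of all 3 groups. ZNF296, which stands alone outside the clusters, gave 7.92, 6.97 and 8.13 CPM against 23.4, 19.9 and 29.1, a log2 fold change of -1.65 ± 0.16. ZNF787 gave 40.7, 35.4 and 37.0 CPM against 86.4, 87.7 and 101, a log2 fold change of -1.28 ± 0.08. Neither of the last 2 genes has a KRAB-like stretch.

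ZNF587B gave 79.1, 81.8 and 79.9 CPM with A-485 and 187, 180 and 175 untreated. That is a log2 fold change of -1.17 ± 0.06 in a gene with 27.3% of its runs shared, mostly with ZNF814. Of the pair with the identical unit, ZNF417 rose by 0.37 ± 0.09 on the log2 scale and ZNF587 (0.11 ± 0.07) did not pass. ZNF526 gave 45.4, 42.5 and 40.3 CPM against 84.5, 99.6 and 97.3, and its neighbour in the same cluster, ZNF574, fell as well, with log2 fold changes of -1.13 ± 0.08 and -1.19 ± 0.18. The remaining falls were those of ZNF324B (-1.01 ± 0.18), ZNF428 (-0.97 ± 0.12), ZNF146 (-0.93 ± 0.15) and ZNF132 (-0.89 ± 0.19). ZNF324B has 32.3% of its runs shared, mostly with its neighbour ZNF324, so its value is uncertain too. Of the 10 largest falls 3 had a KRAB-like stretch, and of the 10 largest rises 9 had one, where 171 of all 201 members had one. The falls also had fewer annotated transcripts, 2 to 6 each, where the rises had 3 to 19. Whether KRAB-like members differ for this reason was not tested.

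Among members named for their known roles, ZNF91 represses SVA elements and ZNF93 represses an L1 family. ZNF91 gave 67.2, 70.5 and 77.6 CPM with A-485 and 53.2, 54.9 and 62.6 untreated. Its groups did not overlap, and its log2 fold change was 0.34 ± 0.08 (edgeR adjusted p = 0.00184). ZNF93 gave 182, 184 and 192 CPM against 180, 194 and 184, with overlapping groups and a log2 difference of 0.00 ± 0.06 that did not pass (edgeR adjusted p = 0.981). With library sizes alone ZNF93 had 0.43 and was called higher, a value close to the shift of 0.42 in the median of all genes. ZNF43, in the same cluster, rose by 0.28 ± 0.06 on the log2 scale.

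ZNF224, a repressor of the aldolase A gene, gave 4.40, 5.11 and 4.82 CPM with A-485 and 0.407, 0.760 and 0.170 untreated. No library of one group reached the other, and the log2 fold change was 3.35 ± 0.36. It rests on 140 counts with A-485 and 9 untreated, so ZNF224 passed the limit of 20 only through the treated group. ZNF382, described as a tumour suppressor, gave 1.10, 1.87 and 1.61 CPM against 0.136, 0.456 and 0, a log2 fold change of 2.84 ± 0.61. That value rests on 45 counts with A-485 and 4 untreated, and the gene passed the limit of 20 only through the treated group. ZNF331, an imprinted gene, gave 0.220, 0.687 and 0.301 CPM against 1.09, 1.67 and 1.02. It was called lower with a log2 fold change of -1.59 ± 0.50 (edgeR adjusted p = 0.0105), a call lost with DESeq2 (adjusted p = 0.0522) and without untreated replicate 2 (edgeR adjusted p = 0.0603).

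The members with the highest mean CPM were ZNF765, ZNF614 and ZNF600. ZNF765 gave 249, 292 and 293 CPM with A-485 and 294, 300 and 334 untreated, and its log2 difference of -0.15 ± 0.07 did not pass (edgeR adjusted p = 0.063), but was called lower without untreated replicate 1 (edgeR adjusted p = 0.0121). It was also called lower with the replicate block (edgeR adjusted p = 0.0215), with DESeq2 size factors in edgeR (adjusted p = 0.0257) and with genes down to 1 count (edgeR adjusted p = 0.0353). With library sizes alone it was called higher, at 0.27 (edgeR adjusted p = 0.00116). ZNF614 gave 233, 251 and 258 against 315, 331 and 323, with a log2 fold change of -0.38 ± 0.05 that became 0.042 with library sizes alone. ZNF600 gave 300, 322 and 320 against 234, 237 and 247, with 0.39 ± 0.05. Of the runs of 50 bases, 23.8% are shared in ZNF600 and 16.1% in ZNF765. At the other end, ZNF540 had 22 counts with A-485 and 0 untreated, at least 6.66-fold higher against a floor of 3 counts over the untreated group. With this gene at its bound the median over the members stayed at 0.28. ZNF304 (0.61 ± 0.71) did not pass, and the call of ZNF570 (1.69 ± 0.65, edgeR adjusted p = 0.0304) was lost with DESeq2 (adjusted p = 0.172) and, with edgeR, without untreated replicate 2 (adjusted p = 0.0808) or 3 (adjusted p = 0.069). ZNF570 had 20 counts with A-485 and 4 untreated. Both ZNF570 and ZNF540 passed the limit of 20 only through the treated group.

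With TMM scaling, TRIM28 and SETDB1, the core of the corepressor that KRAB domains recruit, were not called changed. TRIM28 measured 3.40 ± 0.605 CPM with A-485 and 3.15 ± 1.32 untreated (SD, n = 3 each), a log2 difference of 0.09 ± 0.29 (edgeR adjusted p = 0.789). Its counts were few in these libraries, 63 in the untreated group against 36363 in untreated WSU-DLCL2. The actin gene ACTB was likewise at 4.58 ± 1.53 CPM in untreated Karpas-422 and 17.6 ± 1.12 with A-485, by library size, against 7759 ± 3748 in untreated WSU-DLCL2. Low counts of a gene that most cells express strongly limit how levels can be read within Karpas-422 as well, and their part in the results was not tested. SETDB1 measured 24.6 ± 2.37 and 22.8 ± 1.97 CPM, a log2 difference of 0.12 ± 0.12 (edgeR adjusted p = 0.404). Over the list of 16 genes of the complex 6 rose and 2 fell, with a median of 0.10, where 34.2% of all genes were called higher and 29.9% lower with a median of 0.12. The histone deacetylases HDAC1 and HDAC2 rose by 1.99 ± 0.16 and 1.06 ± 0.14 on the log2 scale, as did the SETDB1 partners ATF7IP (0.66 ± 0.22) and ATF7IP2 (1.46 ± 0.19) and the remodeller CHD3 (0.48 ± 0.07). MORC3 was also called higher, on 28 counts with A-485 and 1 untreated, too few for a fold. The remodeller CHD4 had a log2 fold change of -0.94 ± 0.13 and TRIM24, a relative of TRIM28, of -0.48 ± 0.10.

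Of the 4 genes listed for the HUSH complex, which spreads H3K9 methylation, none rose and 2 fell, PPHLN1 (-0.62 ± 0.07) and MORC2 (-0.96 ± 0.11). Of the 4 other H3K9 methyltransferases EHMT2 rose (0.82 ± 0.18) and SUV39H1 fell (-0.74 ± 0.07). DNMT1, the maintenance DNA methyltransferase, rose by 0.68 ± 0.19 on the log2 scale. Of 9 tested chromosome 19 C2H2 genes without a ZNF symbol, 2 rose and 5 fell, with a median of -0.38. MZF1 gave the largest rise of these at 2.44 ± 0.15 and KLF16 the largest fall at -1.70 ± 0.07. BCL11A, the gene targeted in the clones of the other line, fell with A-485 by 1.35 ± 0.06 on the log2 scale.

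In the clones labelled BCL11A knockout, BCL11A RNA was not lower. It measured 58.8, 69.6 and 51.9 CPM in the clones and 46.8, 45.7 and 73.5 in untreated WSU-DLCL2. The groups overlapped, and the log2 difference was 0.14 ± 0.20 (edgeR adjusted p = 0.903). Without untreated replicate 3 every clone lay above the untreated libraries, and the log2 difference was 0.36 ± 0.12 (edgeR adjusted p = 0.188). Counts over the whole gene do not show whether an edit removed the protein, and they do not check the label.

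None of the 219 members was called between the 3 clones and the 3 untreated libraries, and none of the 19133 genes tested was (edgeR's quasi-likelihood test, 0% of all genes called). At an unadjusted p under 0.05 there were 8 members, 1 higher and 7 lower, and 7.26% of all genes. DESeq2 called 0 members higher and 1 lower, against 0.278% and 1.39% of all genes. The members nonetheless lay mostly on 1 side: 167 had a log2 difference below 0, and their median was -0.15 where that of all genes was -0.01. The clones lay above every untreated library for 8 members and below for 15, against 7.80% and 8.45% of all genes.

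This one-sidedness moved with untreated replicate 3. Without it, 131 members lay above 0 and 87 below, the median over 218 members was 0.05, and that of all genes 0.01. Again no member was called, while 0.378% of the 18534 genes tested were called higher and 1.74% lower, 2.12% in all (edgeR's quasi-likelihood test). At an unadjusted p under 0.05 there were 7 members higher and 6 lower, against 17.7% of all genes. Clones and untreated libraries did not overlap for 33 members higher and 22 lower, against 17.6% and 20.7% of all genes.

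Replicate 3 stood apart from replicates 1 and 2 over all genes as well as in the members. The chi-square per gene over all genes was 201 and 212 against replicates 1 and 2, and 2.66 between those. Relative to the mean of untreated replicates 1 and 2, its median log2 ratio was 0.51 over the members, -0.01 over all genes, 0.23 over ZNF genes of other chromosomes and 0.01 over other protein-coding genes of chromosome 19. It was the highest of the 6 libraries for 154 of 219 members, 70.3%, and for 35.3% of all genes. At least 2-fold above the other untreated replicates were 38 members, and at least 2-fold below were 4. In clones 1, 2 and 3 the same median was -0.12, 0.10 and 0.16, and clone 1 lay on the other side from clones 2 and 3.

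Its labels name both no treatment and A-485, so the members' ratio in replicate 3 was also read by their call in Karpas-422. The median log2 ratio was 0.45 for the 91 members called higher there, 0.52 for the 32 called lower that are members in both lines, and 0.60 for the 75 not called. Members of all 3 classes were above the other untreated replicates at the median. The classes come from the other line and the other kind of library, so this split cannot tell which label holds. Which label of replicate 3 is right was not tested. In other protein-coding genes the ratio was near 0 in each class of transcript number, between -0.06 and 0.08, while the members lay between 0.35 and 0.63. Its depth of 21233752 counts was the lowest of the deep libraries and its share of reads outside genes, 16.8%, the highest. Their part in the result was not tested.

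**Figure D5:**
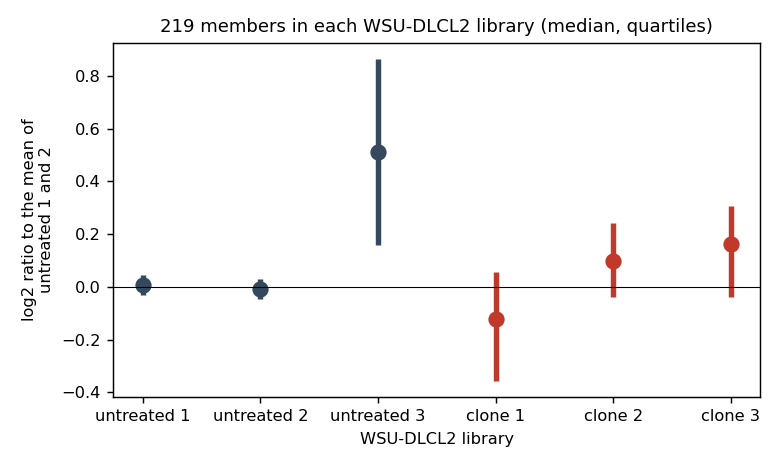
Median (point) and quartiles (bar) over 219 members of the log2 ratio of each WSU-DLCL2 library to the mean of untreated replicates 1 and 2, with untreated libraries in grey-blue and clones in red. Untreated 3 stands at 0.51, above the clones at -0.12, 0.10 and 0.16.

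By cluster, all 26 members from ZNF565 to ZNF573 were below 0 in the clones, with a median log2 difference of -0.40. Without replicate 3, 18 of the 26 were below 0 and the median was -0.12. The cluster from ZNF653 to ZNF791 had 14 of 24 above 0, with a median of 0.10, and 20 of 24 above 0 without replicate 3, with a median of 0.13. None of these members passed the test in either comparison.

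The member with the smallest p was ZNF208, the gene with 36 fingers. It had no count in any clone and 50 in the untreated libraries, at 0.295, 0.273 and 1.36 CPM. Clones were thus at least 17.7-fold lower against a floor of 3 counts over the clones, but the test was not passed (edgeR adjusted p = 0.382). ZNF208 passed the limit of 20 only through the untreated group, where it was high. Without replicate 3 the untreated count was 20, the clones were at least 9.17-fold lower, and the adjusted p was 0.0657 with edgeR. It was called lower there with limma-voom (adjusted p = 0.0098) and with genes down to 1 count in the fit (edgeR adjusted p = 0.00668), and in the comparison with all untreated libraries by DESeq2 (adjusted p = 0.00234).

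ZNF432 gave 8.14, 6.76 and 6.99 CPM in the clones and 10.2, 10.96 and 14.4 untreated, with a log2 difference of -0.70 ± 0.22 that became -0.55 ± 0.15 without replicate 3. Every clone lay below every untreated library, and neither value passed (edgeR adjusted p = 0.506 and 0.138). ZNF69 gave 8.51, 12.6 and 12.5 CPM against 6.32, 6.82 and 7.25, with 0.72 ± 0.23 and, without replicate 3, 0.76 ± 0.21 (edgeR adjusted p = 0.513 and 0.140). DESeq2 called both genes without replicate 3, ZNF432 lower (adjusted p = 0.0387) and ZNF69 higher (adjusted p = 0.0284). ZNF781 had values of 0.170, 0.394 and 0.123 CPM against 0.738, 0.573 and 2.40, the last in replicate 3, and its log2 difference went from -2.37 ± 0.73 to -1.48 ± 0.48 without it. Likewise ZNF528 went from -1.81 ± 0.58 to -1.15 ± 0.40 and ZNF793 from -1.34 ± 0.45 to -0.81 ± 0.30. ZNF649 and ZNF784 were next with -1.06 ± 0.40 and -0.75 ± 0.29. Without replicate 3 ZNF66 (0.51 ± 0.18) and ZNF700 (0.28 ± 0.10) took their place among the smallest p, and did not pass.

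Leaving out clone 2 as well as replicate 3 gave 6 members called lower and none higher, among them ZNF208, ZNF781 (-2.15, edgeR adjusted p = 0.0227) and ZNF382 (-0.47, edgeR adjusted p = 0.0374). Leaving out clone 1 gave 1 member called higher, ZNF69 (0.93, edgeR adjusted p = 0.0239), and none lower. Of all genes, 7.80% were called higher and 9.29% lower without clone 2, and 1.42% and 3.34% without clone 1. These fits were added after the data were seen and hold 2 clones against 2 untreated libraries.

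The members with known roles did not pass in the clones. ZNF274 gave 15.5, 20.7 and 19.9 CPM against 19.7, 17.2 and 20.7, with overlapping groups and a log2 difference of -0.04 ± 0.18. ZNF91 gave 30.2, 37.1 and 29.7 CPM against 31.1, 30.1 and 59.2, where replicate 3 was again the highest, with -0.31 ± 0.29 that became 0.07 ± 0.12 without it. ZNF93 went the other way in replicate 3, with 17.6, 15.7 and 8.74 CPM untreated and 9.87, 15.5 and 15.6 in the clones, a log2 difference of -0.04 ± 0.32. ZNF296 gave 7.09, 6.87 and 6.59 CPM against 5.72, 6.57 and 19.97, and -0.65 ± 0.49 became 0.14 ± 0.15 without replicate 3. ZNF382 lay below every untreated library with 11.1, 15.5 and 12.3 CPM against 16.2, 15.9 and 18.2 (-0.37 ± 0.19). ZNF43 (0.13 ± 0.17), ZNF224 (-0.16 ± 0.37) and ZNF331 (-0.14 ± 0.22) had overlapping groups.

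ZNF146, whose protein is little more than its 10 fingers, had the highest mean CPM of the members in WSU-DLCL2. It measured 127, 133 and 149 CPM in the clones and 135, 137 and 162 untreated, with overlapping groups and a log2 difference of -0.09 ± 0.13. ZNF507 (-0.12 ± 0.16) and ZNF317 (-0.16 ± 0.17) followed, and ZNF257, ZNF77 and ZNF415 were lowest. TRIM28 measured 410 ± 47.6 CPM in the clones and 388 ± 25.5 untreated (SD, n = 3 each), and SETDB1 54.4 ± 3.90 and 58.3 ± 1.31, and neither passed (edgeR adjusted p = 0.911 and 0.886). No gene of the 16 of the corepressor list, of the HUSH list or of the other lists passed in either clone comparison. The nearest was CBX1, an HP1 protein, without replicate 3, with 139 ± 5.67 CPM in the clones and 180 ± 4.20 in 2 untreated libraries, a log2 difference of -0.37 ± 0.07 (edgeR adjusted p = 0.0523). With all untreated libraries it was -0.10 ± 0.26 (edgeR adjusted p = 0.946).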

How the data were processed

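Gene-level read counts of 15 libraries were used as the authors deposited them: whole-number counts per Ensembl gene, not normalized, with 5 summary lines per file. STAR 2.5.3a and RSEM are named, per the submitters' processing notes, with the genome build GRCh37 (hg19). The files themselves are in the format of htseq count files. The sources used here name no annotation, library kit or strand. Summary lines held 60.9% to 70.2% of the reads of shallow libraries and 27.3% to 29.7% of those of deep ones, and were removed first. Depth was 6689320 to 37286727 counts in genes, and bounds against 0 cover counting error only. The labels list 17 sample records, of which 3 are runs of untreated WSU-DLCL2 replicate 3 in 1 file. All replicates were kept as separate libraries. The lowest chi-square per gene between replicates was 1.20, for replicates 2 and 3 of Karpas-422 with A-485. Counting error alone gives about 1, so this value cannot show that they came from separate samples.

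Gene types, transcript numbers, order and sequences came from GENCODE 29, which is on GRCh38, so no coordinates are given. C2H2 units were matched as 2 cysteines 2 to 4 residues apart, 12 residues to the first histidine and 3 to 5 between the histidines. A KRAB-like stretch was a match of a short consensus in the first 250 residues. Genes with 20 or more counts over the fitted libraries were tested in edgeR 4.0.16 (R 4.3.3) with TMM scaling, robust quasi-likelihood fitting and a two-sided test, adjusted by Benjamini-Hochberg over all genes kept, threshold 0.05. Only the groups compared entered a fit. The standard error is the log2 fold change over the square root of F. The script was tested on simulated data. Ratios of single libraries used TMM-scaled CPM plus a small constant. Alternatives used DESeq2 1.42.0, limma-voom (limma 3.58.1), other scalings, filters and left-out libraries.

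The members and lists were chosen with earlier results of these data known. Named were, per comparison, the 10 largest rises and falls among called members whose groups did not overlap and whose higher group reached 5 CPM, or the 8 smallest p where under 5 were called, 8 fixed members, the 3 highest and 3 lowest mean CPM, the members next to the limit, called genes of the pathway lists, TRIM28, SETDB1 and BCL11A. ZNF417, ZNF587, CBX1 and the split by KRAB-like stretch were chosen after their values were seen. One further listed B cell marker is not reported here.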

Additional observations from a re-analysis of the deposited data

How the results depend on the processing

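In Karpas-422 the count of members called higher, 91, stayed within 1.5 times of that value under every alternative of scaling, filter, tool and left-out library. It was 83 to 92 with a library left out, 86 with DESeq2 size factors, 90 with filterByExpr (186 members tested), 87 with genes down to 1 count (220 tested), 78 with DESeq2, 90 with limma-voom and 131 with library sizes alone. Members called lower, 33, numbered 30 to 36 with a library left out and 17 with library sizes alone. Among the 42 members with at most 3 annotated transcripts 10 were higher and 16 lower, a smaller set by construction. The series' own design line calls treated and untreated samples paired but does not tie the replicate numbers to pairs. The numbers were not taken as pairs, since same-numbered libraries deviated together with correlations of only 0.01, 0.03 and -0.04 in Karpas-422 and 0.09, 0.02 and 0.18 in WSU-DLCL2; with the replicate block 88 members were higher and 33 lower in Karpas-422, and 0 were called in either clone comparison, where the median without replicate 3 became -0.03. In the clones against all untreated libraries 0 members were called higher or lower with any library left out (0 to 0), and DESeq2 called 1 lower. Of all genes DESeq2 called 0.278% higher and 1.39% lower in that comparison. Without untreated replicate 3, DESeq2 called 1 member higher and 1 lower, against 2.31% and 4.62% of all genes. Limma-voom called 1 lower, against 2.12% of all genes, and the fit down to 1 count 1 lower, against 2.06%. Leaving out a further library there gave 0 to 1 higher and 0 to 6 lower. ZNF614 in Karpas-422, called lower, had a log2 value of 0.042 with library sizes alone, an alternative that changes the library factors only. Depth limits the lowest members: ZNF540 and ZNF208 rest on 22 and 50 counts.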
